A study of Rattus norvegicus with 320 samples.

Results

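A set of 10 mature microRNAs (miRNAs) from 1 X-linked cluster was measured in 11 organs of the Fischer 344 rat at 4 ages. The members were chosen by name, as the rows of the count table for miR-322, miR-503, miR-351, miR-542 and miR-450a with either arm of the hairpin. The rule gave 10 members from 5 hairpins, out of the 616 miRNAs of the table. The rule uses no measured value, although it was written with earlier results of these data known. miRNAs were sequenced from total RNA of rats aged 2 weeks (juvenile), 6 weeks (adolescent), 21 weeks (adult) and 104 weeks (aged), with 4 females and 4 males per age. Each of the 32 rats gave 10 organs, namely adrenal gland, brain, heart, kidney, liver, lung, skeletal muscle, spleen, thymus and either testis or uterus. All groups were of the same inbred strain, and the labels give no treatment or altered allele. Replicates were separate rats, so a group of 1 organ and 1 age held 8 samples, or 4 in testis and uterus.

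A miRNA hairpin is cut into a 5p and a 3p strand, and usually 1 of them is retained and pairs with target mRNAs through its seed, bases 2 to 8. The hairpins of this cluster lie together on the X chromosome and are thought to be transcribed as a unit. The human counterpart of miR-322 is called miR-424. miR-322 and miR-503 belong to the extended miR-15/16 family, which is known for restraining cyclins and other cell cycle genes and has been studied in muscle differentiation. miR-351 has the seed of miR-125, the mammalian relative of lin-4, a regulator of developmental timing in the worm.

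The sequences below were taken from the deposited table and read 5′ to 3′, with the seed in capitals. The mature sequences of all 10 members were found in RefSeq under the same name. The first set shows miR-322-5p beside 2 abundant miRNAs with the same seed and beside miR-503-5p, because the age change of these miRNAs is compared below.
rno-miR-322-5p: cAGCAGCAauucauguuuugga
rno-miR-16-5p: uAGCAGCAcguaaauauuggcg
rno-miR-195-5p: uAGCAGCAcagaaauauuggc
rno-miR-503-5p: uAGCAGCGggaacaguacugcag
The second set shows miR-351-5p, the most abundant member, beside both other miRNAs of the table with its seed.
rno-miR-351-5p: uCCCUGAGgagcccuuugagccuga
rno-miR-125a-5p: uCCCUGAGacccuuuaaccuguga
rno-miR-125b-5p: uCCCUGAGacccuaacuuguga
The third set shows a near-identical pair. The first 20 bases of miR-450a-5p and miR-450b-5p are the same, and over the 21 bases that both have there is 1 mismatch.
rno-miR-450a-5p: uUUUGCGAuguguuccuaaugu
rno-miR-450b-5p: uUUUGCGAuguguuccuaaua
miR-450b was no member by the rule, and reads of the pair may be split unevenly, so the level of miR-450a-5p is uncertain. The mean log2 ratio of miR-450a-5p to miR-450b-5p lay between 1.05 and 1.89 over the 44 groups of organ and age. The last set shows both arms of miR-542 and the second arm of miR-322, for which the arms are compared below. Each of these 3 seeds occurred once in the table.
rno-miR-542-3p: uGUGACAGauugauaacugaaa
rno-miR-542-5p: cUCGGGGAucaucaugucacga
rno-miR-322-3p: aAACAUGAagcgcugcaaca

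In RefSeq on GRCr8 the hairpins lie on the minus strand of chrX:137720933-137726241, a span of 5309 bases that holds 6 hairpins. In the direction of transcription they run Mir322, Mir503, Mir351, Mir542, Mir450b-1 and Mir450a1. The first 3 are separated by 220 and 659 bases, a gap of 2861 bases follows before Mir542, then 1029 bases to Mir450b-1 and 54 bases to Mir450a1.

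The deposited table holds raw counts, with 315550 to 10571766 per sample and a median of 2848155.5. Of the 320 samples, 318 were used, since the study removed 1 brain sample and 1 spleen sample, and with both included the 87 calls of members for week 21 against week 2 were kept, and 70 of 77 for week 6 against week 2. Levels are given as CPM, the count relative to the sample's total and scaled alike in all samples, without division by length. The sequencing lane, 1 of 8, took between 3.15 and 32.8% of the within-group variation of the 10 members, against a median of 6.13% over all miRNAs, and its share was largest for miR-450a-5p. The labels of 4 organs were compared with defining miRNAs. The lowest own sample was above the highest sample of any other organ for brain (7903 against 193.5 CPM), liver (19418 against 2885 CPM), heart (336.3 against 48.27 CPM) and skeletal muscle (303.2 against 128.6 CPM). No defining miRNA was listed for the other organs. The libraries that stood apart and touch a result below were uterus replicate 4 at week 2, adrenal gland male replicate 1 at week 21, and the testis and thymus samples at week 104. Their values are given beside those results. Brain female replicate 4 at week 104, which the study names for a low share of miRNA reads, stood apart for miR-542-3p with 134.8 CPM against 45.08 CPM in the nearest sample, and no member was called in brain at that age. Further samples that stood apart for single members are listed in the closing section.

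miR-351-5p carried most of the counts of the cluster. It held 65.7% of the counts of the 10 members summed over the 318 samples, miR-322-5p held 14.95%, and miR-450a-5p held 11.3%. miR-322-3p followed with 3.64% and miR-542-3p with 3.02%. The other 5 members (miR-542-5p, miR-503-3p, miR-503-5p, miR-351-3p and miR-450a-3p) each had 0.697% or less. rno-miR-322-5p, rno-miR-322-3p, miR-351-5p, miR-542-3p and miR-450a-5p were counted in all 318 samples, whereas miR-351-3p was counted in 278 and miR-450a-3p in 279.

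The adrenal gland of the juvenile rat held far more of the cluster than any other group. The 10 members together made up 7.38 ± 0.795% of all miRNA counts there (mean ± SD, n = 8; 6.56 to 8.75%). The next group means at week 2 were 1.47% in lung, 1.41% in testis and 1.35 ± 0.355% in skeletal muscle. The lowest was thymus with 0.113%. The mean sum was lower at week 21 than at week 2 in each organ, and the ratio of the week 2 mean to the week 21 mean ran from 2.02 in lung to 14.1 in skeletal muscle. It was 10.2 in uterus (6.81 without replicate 4 of either age), 5.18 in adrenal gland, 3.69 in heart, 3.67 in liver, 3.55 in brain, 3.46 in spleen, 3.36 in kidney, 2.43 in testis and 2.32 in thymus. In whole organs, fewer cells of a type and less miRNA per cell cannot be told apart.

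miR-351-5p in the adrenal gland ranged from 50050 to 69613 CPM at week 2, with a median of 58562 CPM. At week 6 the mean was 24933 ± 5120 CPM, at week 21 the samples lay between 8528 and 13223 CPM (median 10632), and at week 104 between 4982 and 12718 CPM (median 8148; n = 8 at each age). No week 21 sample reached the lowest week 2 sample, while the week 21 and week 104 samples overlapped. In each fit of all miRNAs at 1 age with edgeR (quasi-likelihood test, Benjamini-Hochberg adjustment), adrenal miR-351-5p was above all 10 other organs. The smallest log2 difference was 2.66 at week 2, 2.55 at week 6, 2.22 at week 21 and 1.84 at week 104, with adjusted p of at most 7.37e-11. All 10 members were called above all 10 other organs in the adrenal gland at weeks 2 and 6, 7 members at week 21 and 5 at week 104. The counts for the later ages depended on the scaling: scaled by library size and without TMM factors they were 10, 9, 3 and 2. Over all organ pairs and ages, 1686 of 2200 tests of members were called (76.6%), against 62.0% of the tests of all miRNAs. These shares are for single pairs in either direction. The share of all miRNAs above all 10 other organs in the adrenal gland is not given, so these counts show no excess over it.

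miR-322-5p, the second most abundant member, had a different spread over organs. At week 2 its level was 3506 to 6196 CPM in the adrenal gland (median 4545), 2566 to 3700 CPM in lung (median 3115) and 2589 to 3673 CPM in heart (median 2852). The adrenal gland was above lung (log2 difference 0.95 ± 0.17 SE, adjusted p = 5.91e-07, edgeR), and lung did not pass the test against heart (0.18, adjusted p = 0.391). By mean CPM there followed testis with 1821 ± 328, uterus with 1087 ± 1151, liver with 963, kidney with 703 ± 110, skeletal muscle with 690 ± 125, brain with 615 ± 111, spleen with 554 and thymus with 248 ± 52.2 CPM. The place of uterus rests on replicate 4, without which its mean was 516 ± 164 CPM (n = 3), below spleen. Of the 10 steps between neighbours in this order, 7 did not pass the test and 3 passed in the order given. At week 21 lung led with 2151 ± 665 CPM, ahead of the adrenal gland with 1376 ± 677 CPM, and this step was not called (0.22 ± 0.24, adjusted p = 0.422). The CPM order and the TMM-scaled fit did not always give the same direction, and 2 of the 10 steps at week 21 were called against the CPM order.

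Among the week 2 levels of miR-351-5p outside the adrenal gland, testis had 8545, 8575, 8840 and 12686 CPM and skeletal muscle had 6492 to 11946 CPM (median 9010). Lung had 5736 to 9607 CPM (median 8101), and the 4 uterus samples had 3533, 5039, 6403 and 14222 CPM. These organs overlapped in CPM. The means of the remaining organs were 4543 CPM in heart, 3218 in kidney, 2833 in spleen, 2721 ± 515 in brain and 2010 in liver, and thymus was lowest with 569 ± 139 CPM. Of the 10 neighbouring steps at week 2, 6 passed the test in this order, 2 passed against it and 2 were not called.

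**Figure D1:**
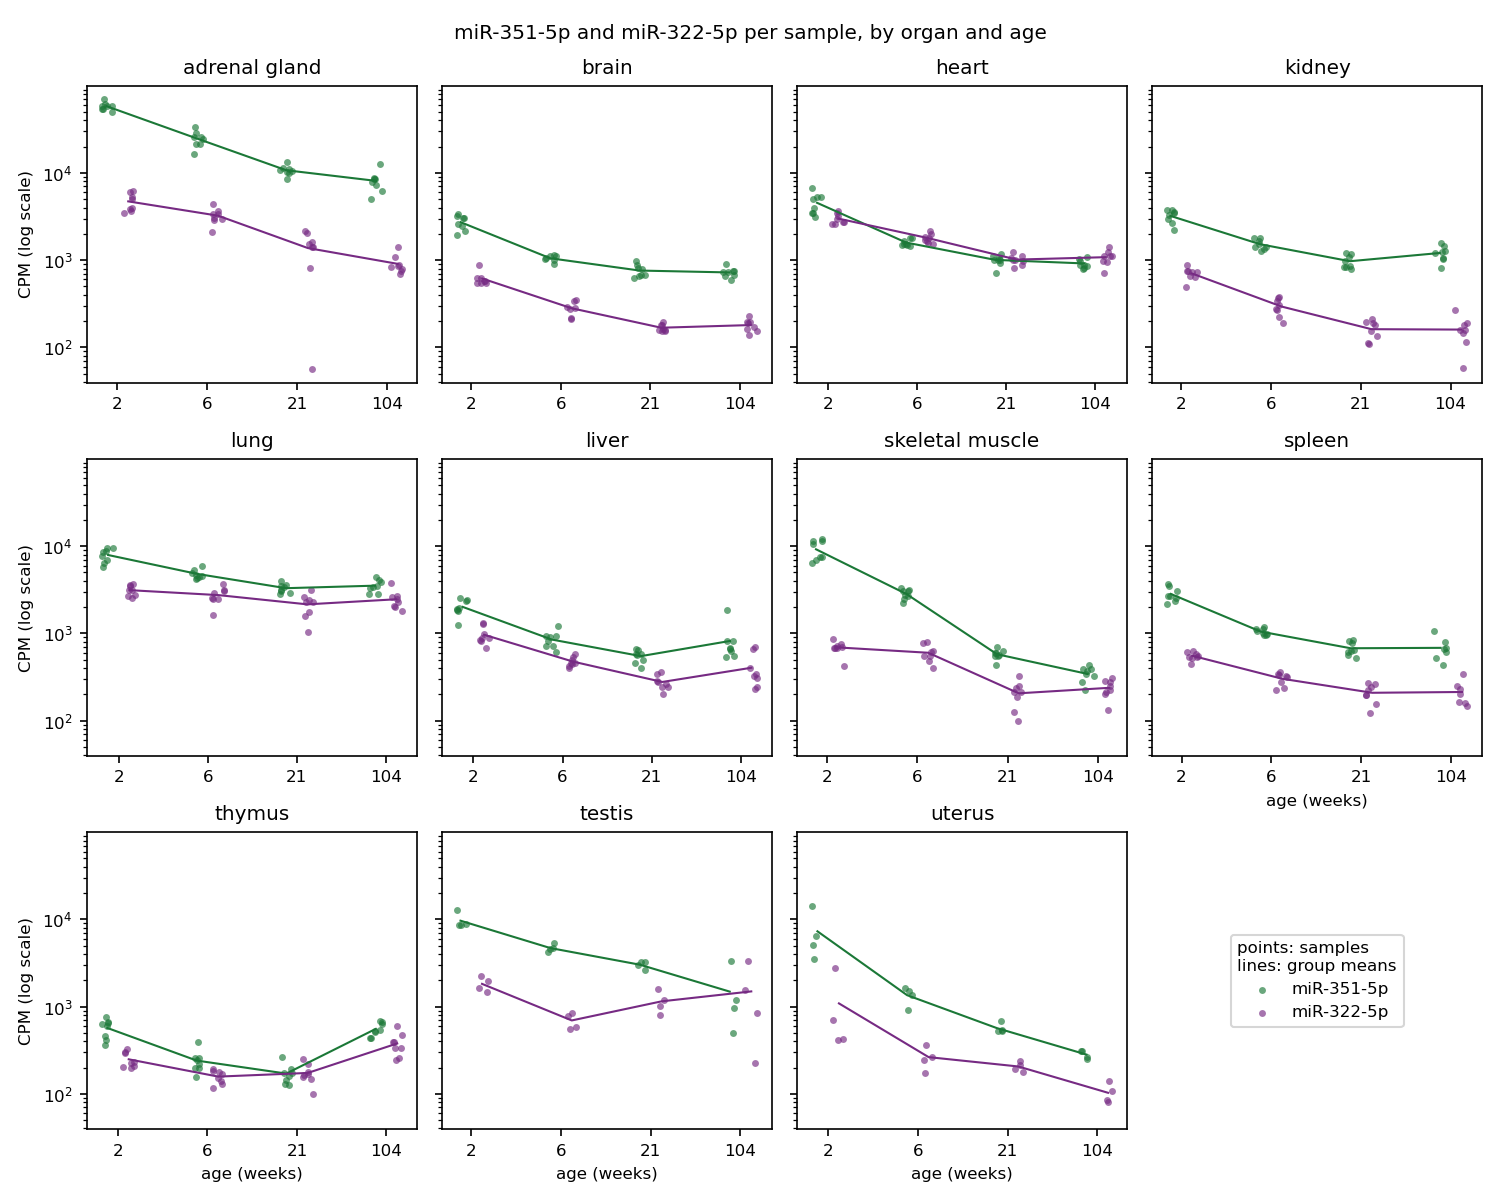
CPM of miR-351-5p (green) and miR-322-5p (purple) on a log axis against age in weeks, 1 panel per organ, with 1 point per sample and lines through the group means. Adrenal miR-351-5p starts at 50050 to 69613 CPM; in skeletal muscle miR-351-5p drops towards miR-322-5p by week 21, in heart both stay close together, and in thymus both rise again at week 104.

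The members fell from the juvenile to the adult rat in nearly all organs. In separate fits for each organ, 77 of the 110 pairs of member and organ were called lower at week 6 than at week 2, against 20.7% of all miRNA and organ pairs, and 0 were called higher (15.5% over all). From week 6 to week 21 another 45 pairs were lower (9.0% over all) and 0 higher (7.44%). For week 21 against week 2 the counts were 87 lower (25.5%) and 0 higher (21.2%). The median log2 change of the members over this interval was −1.39, against −0.08 for all miRNAs. 2 of the 87 calls had a group at no more than 3 counts in any sample: miR-503-5p in liver, with 0 counts in all week 21 samples, and miR-450a-3p in skeletal muscle. Scaling by library size moved the median of all miRNAs by −0.83 to −0.06 between these ages, depending on the organ, and under it 93 pairs were lower (35% over all) and 0 higher.

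miR-351-5p was lower at week 21 than at week 2 in 11 of 11 organs, and the samples of both ages did not overlap in any of them. Samples of these ages were also apart in all 11 organs for miR-542-5p and miR-542-3p. No share of all miRNAs with such a separation is given. miR-322-3p was called in 10 organs (all but testis), as were miR-542-5p, miR-542-3p and miR-450a-5p, and miR-503-5p in all but brain. miR-322-5p was called in 9 organs. Its exceptions were lung, with 2566 to 3700 CPM at week 2 and 1047 to 3164 CPM at week 21 (log2 change −0.22, adjusted p = 0.212), and testis (−0.39, adjusted p = 0.444). The lung exception depended on the scaling, since by library size the change was −0.55 (adjusted p = 0.00741) and miR-322-5p was called there. The rarer arms were called less widely, with 7 organs for miR-503-3p, 6 for miR-351-3p and 4 for miR-450a-3p. By organ, all 10 members were called in adrenal gland, skeletal muscle and uterus, 9 in kidney, 8 in brain, lung, liver and spleen, 7 in heart and thymus, and 2 in testis (miR-503-5p and miR-351-5p). The share of all miRNAs called lower is given only over all organs together, so these counts cannot be set against a share per organ. Testis and uterus had 4 samples per age. The call of miR-322-5p in thymus (−0.48 ± 0.15, adjusted p = 0.0143) was lost without replicate 1, 2 or 3 (−0.26, −0.46 and −0.37), and that of miR-351-5p in testis (−1.38 ± 0.31, adjusted p = 0.00112) was lost with the lane as a covariate (adjusted p = 0.17). In spleen, 4 of 4 red cell markers were lower (121545 to 233013 and 34619 to 80505 CPM) and 4 of 4 lymphoid markers higher (29217 to 59264 and 46586 to 71801 CPM) at week 21. The study also gives low RNA integrity for all juvenile spleen samples, so RNA quality and age cannot be told apart in spleen.

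**Figure D2:**
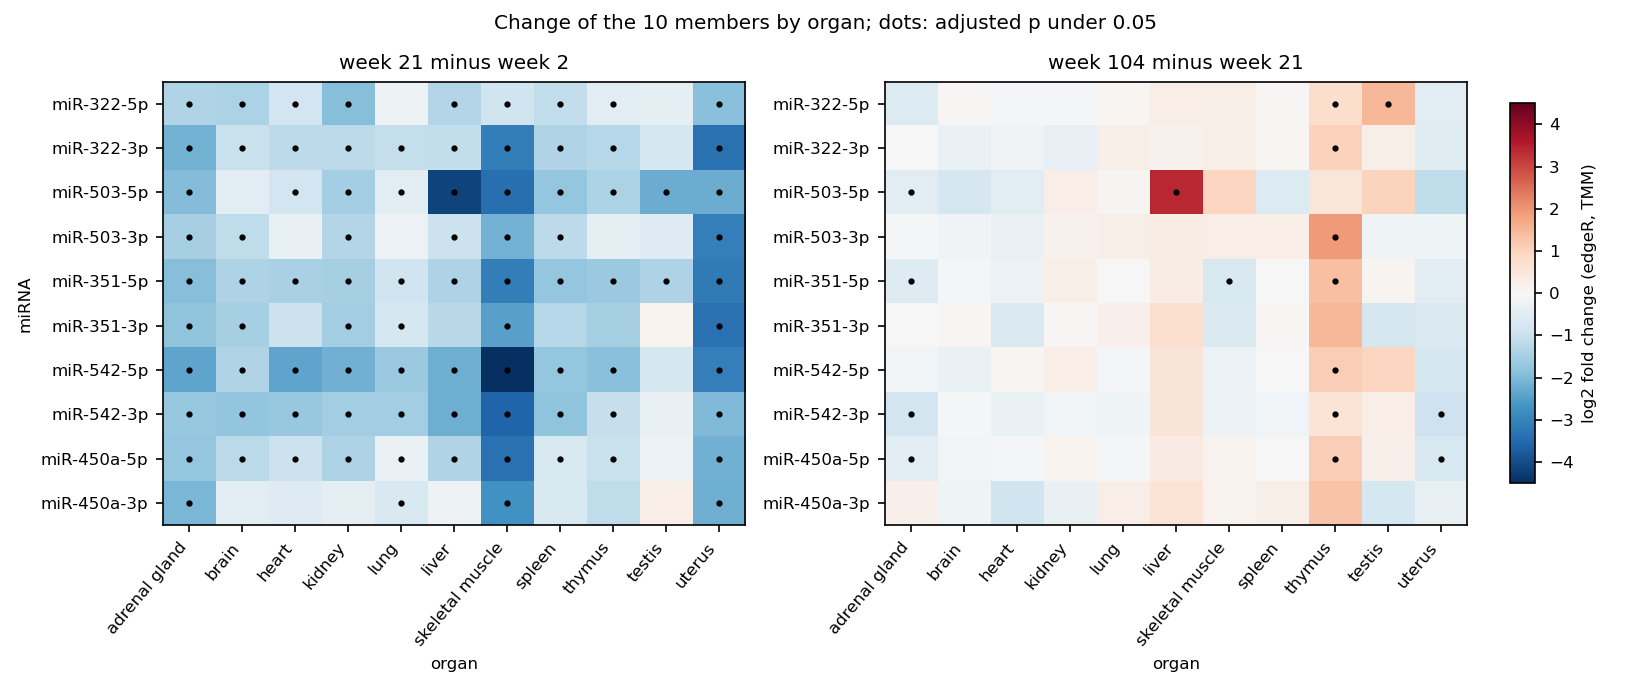
Log2 change of the 10 members (rows) in 11 organs (columns), week 21 minus week 2 on the left and week 104 minus week 21 on the right, with a dot where the edgeR adjusted p was under 0.05. Blue marks a fall; on the left 87 of 110 cells carry a dot, on the right 16, of which 7 are in thymus. The dark cells of miR-503-5p in liver rest on 0 counts at week 21.

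In the adrenal gland the members fell together. miR-351-5p was 3.79-fold lower at week 21 than at week 2 (log2 change −1.92 ± 0.15 SE, adjusted p = 2.49e-12), and miR-322-3p went from 2305 ± 650 to 378 ± 144 CPM. miR-450a-5p went from 6089 ± 1847 to 1251 CPM, miR-542-3p from 1591 ± 213 to 335 ± 40.6 CPM and miR-503-3p from 349 to 83.1 CPM. The log2 changes of the 10 members lay between −2.38 for miR-542-5p and −1.36 for miR-322-5p. Male replicate 1 at week 21 had 56.15 CPM of miR-322-5p, where the median of its group was 1473 CPM, but its miR-351-5p was 10409 CPM, close to the group median. Marker miRNAs of other cells moved in the same organ: 4 of 4 lymphoid markers and 3 of 4 red cell markers were higher at week 21, and of 5 mesenchymal markers 3 were lower and 2 higher. Their part in the fall was not tested.

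Skeletal muscle had the largest ratio of the cluster sums. miR-351-5p went from 6492 to 11946 CPM (median 9010) at week 2 through a mean of 2823 ± 365 CPM at week 6 to 431.6 to 694.4 CPM (median 581.9) at week 21. No samples of weeks 2 and 21 overlapped, and the fitted fall was 8.61-fold (log2 −3.11 ± 0.13, adjusted p = 5.3e-21). It went on to 342 ± 67.1 CPM at week 104 (log2 −0.71). miR-542-5p fell furthest, from 101.7 to 283.6 CPM to between 0 and 10.76 CPM, a 22.6-fold fall (−4.50 ± 0.24, adjusted p = 6.33e-18). miR-542-3p was 12.2-fold lower and miR-450a-5p 10.3-fold lower. miR-322-5p, from the same cluster, had a smaller fitted change. It was 423.5 to 871.6 CPM (median 695.1) at week 2 and 98.03 to 324.6 CPM (median 212.1) at week 21, and the fitted fall was 1.87-fold (−0.90 ± 0.17, adjusted p = 2.72e-05). Its other arm miR-322-3p went from 249.7 to 822 CPM to 15.33 to 50.14 CPM, an 8.61-fold fall (−3.11 ± 0.23, adjusted p = 3.7e-14). These folds are with TMM factors, and by library size they were larger: 15.6-fold for miR-351-5p, 40.9-fold for miR-542-5p, 22.15-fold for miR-542-3p, 18.8-fold for miR-450a-5p, 3.35-fold for miR-322-5p and 15.8-fold for miR-322-3p.

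As a share of the cluster in muscle, miR-322-5p went from 5.34 ± 1.47% at week 2 to 13.9% at week 6, 21.2 ± 6.27% at week 21 and 30.8% at week 104. The share of miR-351-5p went from 68.4% at week 2 to 60.1% at week 21 and 44.8% at week 104. Heart, the other striated muscle, had a different mix throughout, with miR-322-5p at 30.2% of the cluster at week 2 and 40.7, 37.4 and 39.8% at the later ages. Red cell markers in muscle were 41029 to 161263 CPM in sum at week 2 and 55056 to 82684 CPM at week 21 (3 of 4 lower, 1 higher), and mesenchymal markers were 43866 to 56419 and 37529 to 69174 CPM (3 of 5 lower, 2 higher). Their part in the members' fall was not tested.

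In uterus the week 2 samples differed widely. miR-322-5p was 427.3, 414.4, 705.2 and 2803 CPM in replicates 1 to 4 at week 2 and 178.5 to 237.3 CPM at week 21, and replicate 4 stood well above the rest. miR-351-5p was 3533, 5039, 6403 and 14222 CPM at week 2, 521.1 to 691.1 CPM at week 21 and 281 ± 30.5 CPM (n = 4) at week 104. The week 21 samples lay below all week 2 samples for both. The fitted log2 change was −3.18 ± 0.29 for miR-351-5p (adjusted p = 2.67e-08) and −1.87 ± 0.40 for miR-322-5p (adjusted p = 0.000714). Without replicate 4 at each age the changes were −2.57 (adjusted p = 3.05e-08) and −0.80 (adjusted p = 0.0070), and all 10 members were still called lower. Between weeks 2 and 21, 3 of 4 lymphoid, 4 of 5 mesenchymal, 4 of 5 epithelial and 2 of 2 endothelial markers were higher in uterus, and the mesenchymal sum went from 248898 to 318572 CPM up to 436956 to 526599 CPM. In the direction of the members, the red cell sum went from 610.8 to 1447 CPM to 263.2 to 437.2 CPM (1 of 4 lower), the liver marker from 114.5 to 236.2 CPM to 3.73 to 9.63 CPM (lower), and 3 of 4 germ cell markers were lower. Their part in the fall was not tested.

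Whether an organ differed from the others in its age change was tested in 1 fit over all organs, as the log2 change from week 2 to week 21 in 1 organ minus the mean change in the other 10. Of 110 pairs, 16 had a larger fall (11.8% of all miRNA and organ pairs were called in this direction) and 24 a smaller fall (14.5%). Skeletal muscle had 7 members with a larger fall (14.1% of all miRNAs in that organ) and uterus 6 (10.4%). miR-351-5p fell by a further 1.24 ± 0.16 in muscle (adjusted p = 1.44e-12) and by a further 1.59 ± 0.22 in uterus (adjusted p = 3.86e-10) on the log2 scale. Testis had 8 members with a smaller fall (18.7% of all miRNAs in that organ) and lung 5 (6.82%). Without replicate 3 the 24 smaller falls became 15. In lung the difference was 0.81 ± 0.16 for miR-351-5p (adjusted p = 2.45e-05) and 0.77 for miR-322-5p (adjusted p = 0.00525). The difference between both arms of miR-322 in muscle appeared here too, with −1.42 ± 0.21 for miR-322-3p (adjusted p = 8.37e-10) and 0.44 for miR-322-5p (adjusted p = 0.118). miR-322-5p had larger falls in uterus (−0.94 ± 0.30, adjusted p = 0.0123) and in kidney (−0.82 ± 0.22, adjusted p = 0.00162). The uterus value includes replicate 4, without which the change of miR-322-5p within uterus was −0.80 in place of −1.87. Its difference from the other organs without that replicate is not given, so the larger fall in uterus may rest on 1 sample. In kidney its level went from 489.4 to 868.7 CPM down to 110.5 to 213.7 CPM without overlap. The other arm, miR-322-3p, had a smaller fall in kidney (0.55 ± 0.20, adjusted p = 0.0332). In testis, markers of other cells moved between weeks 2 and 21 as well: 4 of 4 germ cell markers were higher (1801 to 7900 and 152476 to 190922 CPM), 3 of 4 red cell markers were higher (3233 to 4484 and 10991 to 22841 CPM) and 5 of 5 epithelial markers were lower (1535 to 3133 and 223.3 to 474 CPM). The study also describes testis libraries of adolescent and adult rats as mostly piRNA, unlike the juvenile ones. The part of these in the testis result was not tested.

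At week 21 lung had the highest cluster sum outside the adrenal gland. Its miR-351-5p was 7920 ± 1468 CPM at week 2 and 2843 to 4010 CPM (median 3265) at week 21, a 1.88-fold fall (log2 −0.91 ± 0.10, adjusted p = 2.24e-09). miR-450a-5p there was 1991 CPM at week 2 and 1278 CPM at week 21 (−0.29 ± 0.12, adjusted p = 0.038). This last call was lost without replicate 1, 2 or 3, with changes of −0.17 to −0.34. The cluster sum in lung was 0.728% of counts at week 21 and 0.798% at week 104.

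The aged thymus was the main exception to the fall. From week 21 to week 104, 16 of 110 pairs were called, 7 lower (8.72% over all) and 9 higher (7.43%), and 7 of the 9 were in thymus, where 19.7% of all miRNAs were called higher. miR-351-5p in thymus was 362.4 to 765.7 CPM (median 614.3) at week 2 and 240 CPM on average at week 6. At week 21 it was 126.4 to 266.2 CPM (median 164.9), and at week 104 it was 433.6 to 686.2 CPM (median 535.1). All week 104 samples lay above all week 21 samples, and the rise was 2.56-fold (log2 1.36 ± 0.14, adjusted p = 4.5e-10). miR-322-5p was 195 to 329 CPM at week 2 and 100.6 to 251.5 CPM (median 166.8) at week 21. At week 104 it reached 246.2 to 594 CPM (median 360.1), 1.73-fold above week 21 (0.79 ± 0.15, adjusted p = 4.5e-05), with slight overlap. miR-322-3p was 2.04-fold higher, and miR-503-3p rose 3.77-fold, from between 0 and 7.68 CPM to between 6.87 and 33.3 CPM. miR-542-5p (1.11 ± 0.27), miR-542-3p (0.61 ± 0.18) and miR-450a-5p (1.11 ± 0.20) were also higher on the log2 scale. miR-503-5p, miR-351-3p and miR-450a-3p, at a mean of 2.38 CPM or less, did not pass the test. The cluster sum in thymus was 0.0485% of counts at week 21 and 0.129% at week 104.

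The week 104 thymus samples also differed in markers of other cells. Of the lymphoid markers 3 of 4 were lower, with sums of 31585 to 50360 CPM at week 21 and 11598 to 29628 CPM at week 104. Red cell markers were higher in 4 of 4 (1156 to 5303 and 6285 to 93919 CPM) and endothelial markers in 2 of 2 (4295 to 16325 and 9242 to 29035 CPM). Epithelial markers were higher in 3 of 5 (3588 to 6009 and 977.6 to 13252 CPM) and mesenchymal markers in 3 of 5 (91394 to 169239 and 110291 to 170174 CPM). Single samples stood apart, with the highest red cell sum in male replicate 3 (93919 CPM) and the lowest lymphoid and epithelial sums in male replicate 1 (11598 and 977.6 CPM), which had 594 CPM of miR-322-5p, the highest of its group. Without replicate 1 of each sex and age, 7 members were again called higher, with log2 changes of 1.32 for miR-351-5p and 0.64 for miR-322-5p (adjusted p = 0.00176). With library size only, 7 were called as well. The part of the cell markers in the rise was not tested.

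**Figure D3:**
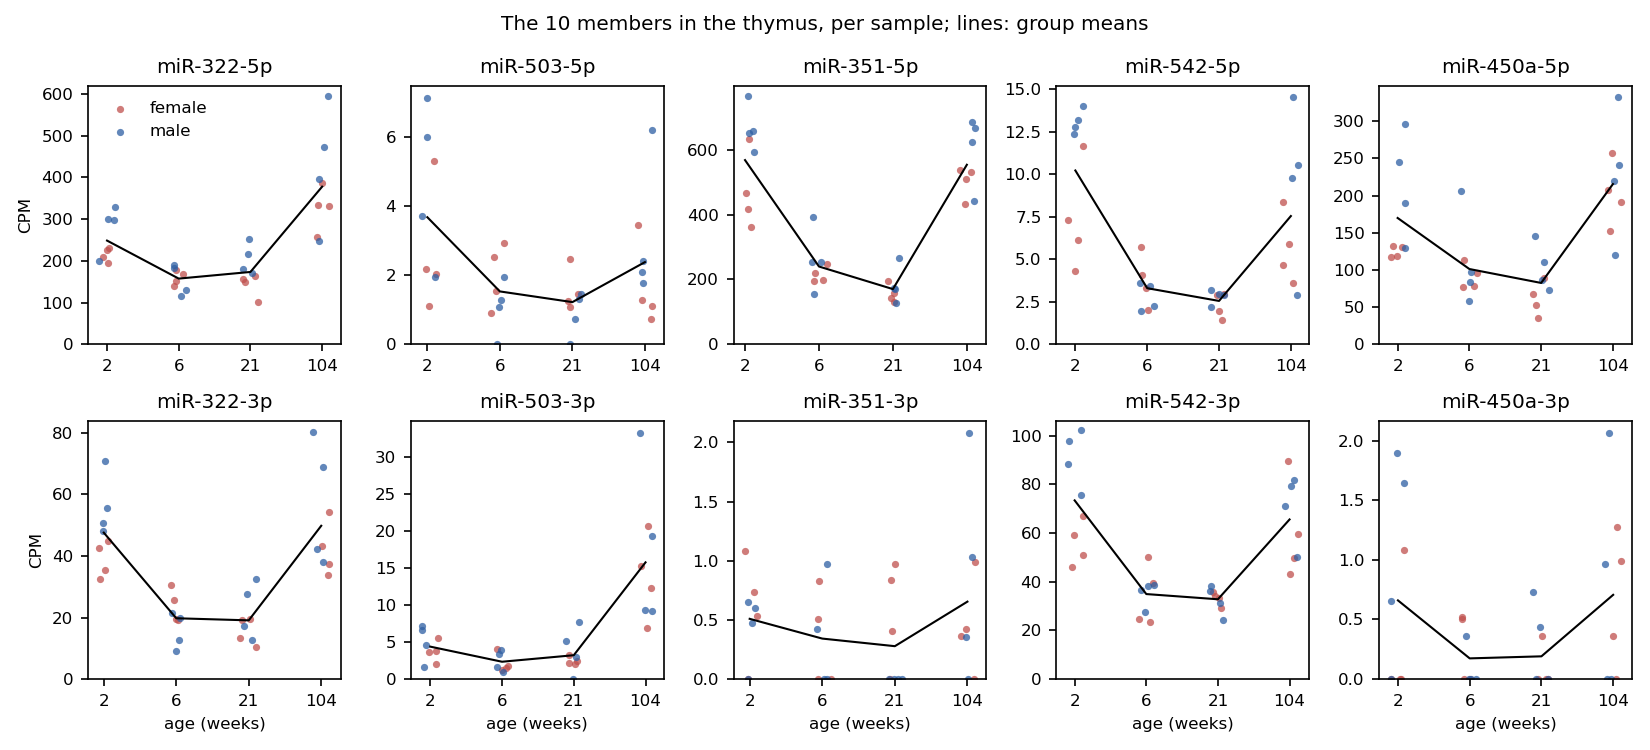
CPM of the 10 members in the thymus against age in weeks, with 1 point per sample (red for female, blue for male) and a line through the group means of 8 samples. miR-351-5p lies between 126.4 and 266.2 CPM at week 21 and between 433.6 and 686.2 CPM at week 104; the scales differ between panels.

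Outside the thymus few members were called after week 21. In the adrenal gland miR-351-5p (log2 −0.58), miR-542-3p (−0.84), miR-503-5p (−0.50) and miR-450a-5p (−0.50) were lower at week 104. In uterus miR-542-3p (−0.93) and miR-450a-5p (−0.73) were called lower, and in skeletal muscle miR-351-5p was lower, as given above. All 10 members had a negative change in uterus, with a median of −0.59 against −0.15 for all miRNAs there. By library size these medians were −1.08 and −0.62. The cluster sum in uterus was 0.0925 to 0.121% of counts at week 21 and 0.0419 to 0.0579% at week 104. In liver miR-503-5p was called higher, from 0 counts in all week 21 samples, and the call was lost whichever replicate number was left out. Of the 7 lower calls, those of miR-542-3p in adrenal gland and miR-351-5p in muscle passed under each alternative run. In the adrenal gland miR-450a-5p lost its call without any 1 replicate number (−0.60 to −0.36), miR-503-5p without replicate 1, 2 or 4 (−0.47 to −0.27) and miR-351-5p without replicate 2 (−0.60). Scaling by library size also ended the calls of miR-450a-5p (−0.32, adjusted p = 0.384) and miR-503-5p (−0.42, adjusted p = 0.226) there. In uterus miR-542-3p lost it without replicate 3 (−0.90) and miR-450a-5p without replicate 2 or 3 (−0.66 and −0.85). In testis miR-322-5p was 1183, 1609, 1005 and 794.3 CPM at week 21 and 3341, 1560, 227.8 and 840.5 CPM in replicates 1 to 4 at week 104, so the ages overlapped. Its call (log2 1.49 ± 0.40, adjusted p = 0.00443) was lost with library size only (0.38, adjusted p = 0.557) and without replicate 1 (0.81, adjusted p = 0.083). With library size only, 4 members in testis were called lower instead, and the sign differed in 6 of the 10, so no direction is given for the cluster in the aged testis. Germ cell markers in these testes summed to 2436, 1256, 121.6 and 75.98 CPM, against 152476 to 190922 CPM at week 21. Other marker sums were lower too: mesenchymal (17875 to 59331, against 140398 to 221641 CPM), red cell (900.1 to 1826, against 10991 to 22841 CPM) and epithelial (52.94 to 139.7, against 223.3 to 474 CPM). Lymphoid and endothelial sums overlapped between the ages, and the heart marker was higher. The part of these markers in the values of the members was not tested.

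The share of miR-351-5p among the counts with its seed was lower at the later ages. In the adrenal gland miR-351-5p made up 80.8 ± 4.98% of the counts of miR-351-5p, miR-125a-5p and miR-125b-5p at week 2, 68.5% at week 6, 46.7 ± 5.96% at week 21 and 33.4% at week 104. In skeletal muscle it went from 60.4 ± 8.93% to 27.3, 7.56 ± 1.34 and 5.83%. In brain, where miR-125 is abundant, it was 7.86% at week 2 and 1.78% at week 21. In thymus it was 22.3% at week 2, 4.1 ± 1.36% at week 21 and 4.47 ± 2.17% at week 104. The counts of all 3 miRNAs with this seed in thymus were 4831 ± 2759 CPM at week 21 and 14673 ± 6518 CPM at week 104. miR-125a-5p and miR-125b-5p themselves were called higher at week 21 than at week 2 in 8 of 22 pairs (21.2% over all miRNAs). They were lower in 0 (25.5% over all), with a median log2 change of 0.43. Where they were called, these 2 miRNAs thus rose while miR-351-5p fell.

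miR-322-5p was a smaller part of its seed. It held 32.02 ± 2.01% of the counts of the 6 miRNAs with this seed in the juvenile adrenal gland, and 25.3, 14.5 ± 5.54 and 10.3% at the later ages. It held 12.9 ± 0.843% in muscle at week 2 and 3.18 ± 0.742% at week 21, and 14.8% and 11.4% in lung. In thymus it held 0.613, 0.426, 0.499 and 1.93% at the 4 ages. The 5 other miRNAs with the seed were called higher at week 21 than at week 2 in 24 of 55 pairs (21.2% over all miRNAs). They were lower in 7 (25.5% over all), with a median log2 change of 0.29. miR-195-5p was higher in 10 of 11 organs, whereas miR-15b-5p was lower in 7 and higher in 1, and miR-16-5p was higher in 2.

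**Figure D4:**
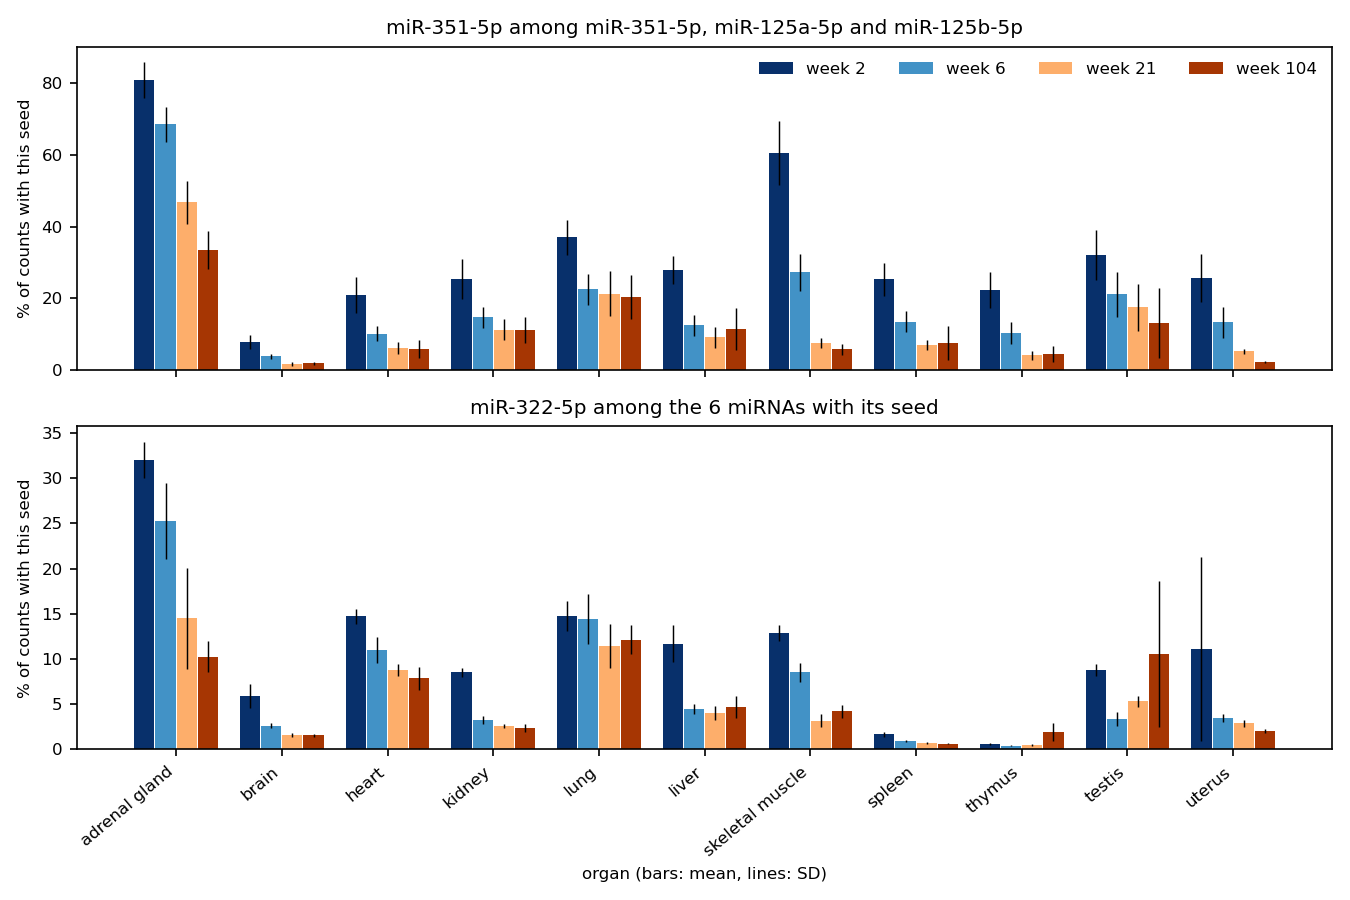
Percent of the counts with a given seed held by miR-351-5p (top) and miR-322-5p (bottom), by organ and age, as mean and SD (n = 8 rats, 7 in brain at week 6 and spleen at week 104, 4 in testis and uterus). Adrenal miR-351-5p falls from 80.8 to 33.4% between weeks 2 and 104; the wide bar of miR-322-5p in uterus at week 2 reflects replicate 4.

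Another X-linked cluster, miR-106a to miR-363, was taken for comparison. Of its 6 listed miRNAs 3 were in the table (miR-20b-5p, miR-20b-3p and miR-363-3p), and 10 of 33 pairs were lower and 2 higher at week 21, with a median log2 change of −0.38 (25.5% lower and 21.2% higher over all miRNAs). miR-450b, whose hairpin lies inside the span of the cluster but is no member, was lower in 13 of 22 pairs and higher in 0, with a median of −0.83.

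The use of both arms of a hairpin differed between the 5 hairpins. The 5p arm was higher in all 318 samples for miR-351 and miR-450a, in 315 for miR-322, in 7 for miR-503 and in 0 for miR-542. The 3 exceptions for miR-322 were male replicates 3 and 4 of juvenile muscle, with 716.9 and 703.3 CPM of the 5p arm against 821.3 and 822 CPM of the 3p arm, and adrenal male replicate 1 at week 21, with 56.15 against 65.16 CPM. A ratio within 1 library does not depend on scaling between libraries.

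The ratio of the arms of miR-322 changed with age in muscle. The log2 ratio of 5p to 3p was −0.225 to 1.19 at week 2, 1.89 to 2.72 at week 6, 1.87 to 3.80 at week 21 and 2.19 to 3.63 at week 104. No week 2 sample reached the later ages, and the mean went from 0.58 ± 0.53 to 2.81 ± 0.56 between weeks 2 and 21 (two-sided exact permutation p = 0.000155, the smallest that 8 against 8 allows, adjusted p = 0.00427 over 55 tests). The same direction was called in thymus (2.39 to 3.22, adjusted p = 0.00427) and in lung (2.22 to 3.03, exact permutation p = 0.000932, adjusted p = 0.0128). In kidney the mean went the other way, from 1.59 to 0.859, without a call (exact permutation p = 0.00839, adjusted p = 0.0891). Brain (2.19 to 1.74, adjusted exact permutation p = 0.143) and liver (2.59 to 2.39) also moved toward the 3p arm without a call. Adrenal gland, heart, spleen and testis moved toward the 5p arm without a call. In uterus the ratio went from 0.82 to 2.56, but 4 samples against 4 cannot give an exact permutation p under 0.0286, which was the value obtained (adjusted p = 0.143). The only call toward the 3p arm was miR-542 in muscle, from −1.73 to −2.84 (difference −1.11, adjusted exact permutation p = 0.0128), and it was lost without replicate 1. The count depended on the pseudocount, since with 5 in place of 0.5 there were 13 calls toward the 3p arm. Arm ratios of hairpins outside the cluster were not tested, so no share over other hairpins stands beside these calls.

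**Figure D5:**
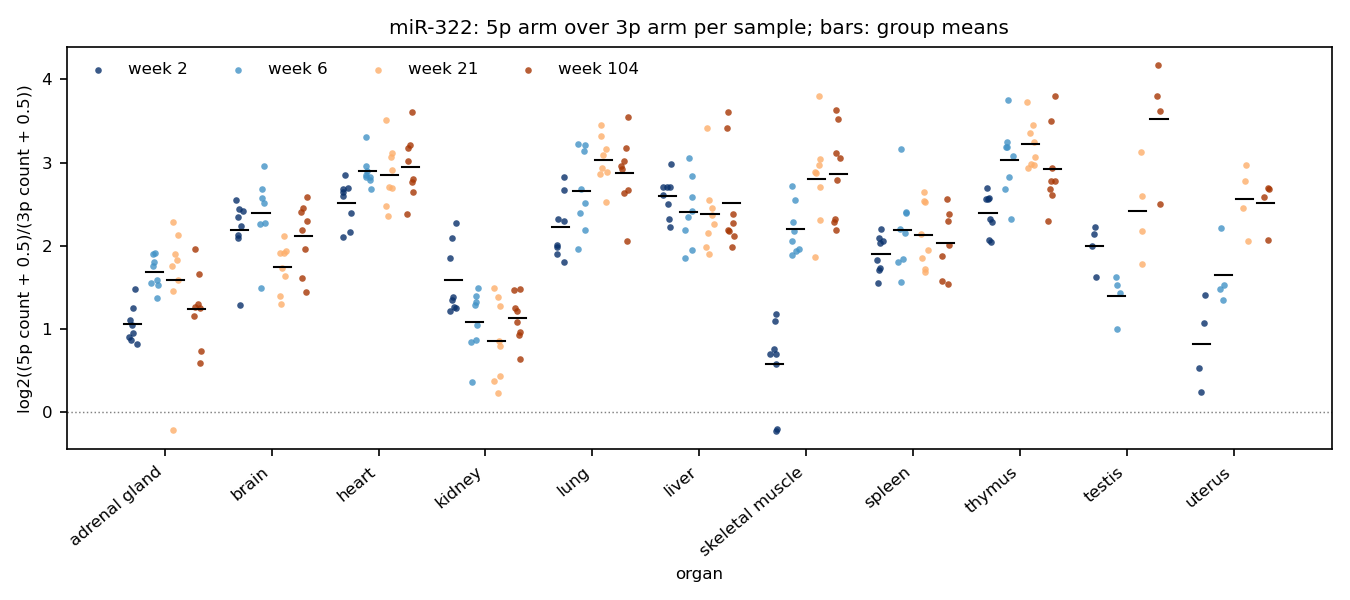
Log2 ratio of the 5p to the 3p counts of miR-322, with 0.5 added to each, per sample by organ and age; short bars are group means and the dotted line marks equal arms. Juvenile skeletal muscle lies between −0.225 and 1.19, below all later muscle samples, and 3 samples of 318 lie below the line.

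Sex made little difference that passed the test. Over 9 organs and all ages, 0 of 90 pairs of member and organ were called by edgeR (1.40% over all miRNAs), 10 had an unadjusted p under 0.05, and DESeq2 called 5 (3.00% over all), namely miR-351-5p in brain, muscle and thymus and miR-450a-5p in muscle and thymus, all higher in males. The age change from week 2 to 21 differed between the sexes in 0 of 90 pairs (0.672% over all), with 10 at an unadjusted p under 0.05 and 2 by DESeq2 (2.25% over all). The sexes were also compared at week 2 alone, a contrast chosen after the values were seen. There 1 of 90 pairs was called (2.27% over all), miR-542-3p in muscle, with 402.9 to 671.4 CPM in females and 875.9 to 1022 CPM in males (log2 −0.83 ± 0.25, adjusted p = 0.0488). 12 pairs had an unadjusted p under 0.05, and DESeq2 called 4 (4.38% over all), namely miR-351-5p in heart and muscle and miR-450a-5p and miR-542-3p in muscle.

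Mean CPM of miR-351-5p at week 2 was higher in males in 9 of 9 organs, at week 6 in 3, at week 21 in 7 and at week 104 in 6. The week 2 count was also 9 for miR-542-3p, and it was 7 for miR-322-5p and 6 for miR-450a-5p. The organs of an age came from the same rats, so the 9 organs are not independent comparisons. No share of all miRNAs with such a count is given. None of the week 2 differences of miR-351-5p was called by edgeR, while DESeq2 called those in heart (log2 −0.56 ± 0.14, adjusted p = 0.00268) and muscle (−0.54 ± 0.14, adjusted p = 0.00228). In muscle the females had 6492 to 7548 CPM and the males 10473 to 11946 CPM without overlap (log2 −0.54 ± 0.17, adjusted p = 0.0528 by edgeR), and with the lane as a covariate the adjusted p was 0.226. The juvenile female muscle samples ran on lanes 1, 3 and 7 and the male ones on lanes 2 and 8, so that sex and lane cannot be told apart there.

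The members varied together over groups. Across the 44 groups of organ and age, Pearson's r of mean log2(CPM + 1) had a median of 0.927 over the 45 pairs of members (0.802 to 0.976), against 0.113 over all pairs of miRNAs. These groups share rats and lanes, and r is given as a description. Within groups of organ, sex and age, the deviations of single samples from the group mean had a median r of 0.298 over the 45 pairs (0.00776 to 0.695), against 0.0764 over all pairs. Removal of lane means left 0.297. The closest pair within groups was miR-322-5p with miR-542-5p (r = 0.695), from hairpins that do not adjoin. With lane means removed, the closest pair was both arms of miR-322 (0.703), ahead of miR-322-5p with miR-542-5p (0.671). Outside the members, the miRNAs most like miR-322-5p over the 44 groups were miR-450b-5p (r = 0.902), miR-450b-3p (0.856), miR-452-5p (0.622), miR-452-3p (0.579) and miR-210-3p (0.571), where the first 2 lie within the span of the cluster.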

How the data were processed

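The deposited table holds read counts per mature miRNA, without normalization, for 320 small RNA libraries. The authors trimmed the reads (fastp 0.23.2), aligned them with Bowtie 1.3.1 and named rn7 as the genome build, per the submitters' processing notes, and left the counts unscaled. Lanes were taken from the study's sample sheet. Groups were taken from the labels. CPM were computed from the column totals.

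Differences were tested on the counts with edgeR 4.0.16 in R 4.3.3 (TMM, quasi-likelihood, Benjamini-Hochberg over all miRNAs of a contrast, adjusted p under 0.05). Each organ was fitted by itself for age and sex (every sex at every age as a group), each age by itself for organ pairs, and all organs together for the difference between organs. The SE of an edgeR change is its absolute log2 value over the square root of the test's F statistic. In the fit over all organs it was 348.4 and 589.8 for miR-503-5p and miR-351-3p in muscle. For miR-351-3p in uterus it was 1184872.7. These pairs have no usable SE and stand among those not called. DESeq2 1.42.0 was an alternative. The others were library size only, a mean count of at least 10, lane as a covariate, all 320 samples, a replicate block, leaving out each replicate, and for arm ratios a pseudocount of 5 or at least 20 counts. Arm ratios used a pseudocount of 0.5 and a two-sided exact permutation test (Python 3.11.15, SciPy 1.17.1). A group with at most 3 counts in each sample was taken as at the floor. The steps were tested on simulated data.

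Replicate numbers recur across organs, ages and sexes. Samples of the same organ and number at another age or sex deviated together with a mean r of 0.00579, and 262 of 1042 pairs were over 0.1. Organs of the same rat, which the design links, gave a mean r of 0.00834, with 291 of 1422 pairs over 0.1. The rat was the block for organ pairs and the number for age and sex.

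All members are named, with the 5 other miRNAs most like miR-322-5p by r over 44 groups and the members of 3 lists: miRNAs with the seed of miR-322-5p, those with the seed of miR-351-5p, and the X-linked miR-106a to miR-363 cluster. The members and lists were chosen with earlier results of these data known.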

Additional observations from a re-analysis of the deposited data

Results flagged for a closer look

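Samples were examined for standing apart in 220 groups of 4 to 8 for miR-322-5p, miR-351-5p, miR-542-3p, miR-450a-5p and the sum of the 10 members, by the gap to the nearest sample over the range (Dixon). 22 groups had such a sample, where chance flags about 1 in 20.

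For miR-322-5p the samples were brain week 2 male replicate 2 with 875.1 CPM, lung week 104 female replicate 1 with 3768 CPM, muscle week 2 female replicate 3 with 423.5 CPM (the lowest) and uterus week 2 replicate 4 with 2803 CPM. For miR-351-5p they were liver week 104 female replicate 4 with 1847 CPM, thymus week 6 male replicate 4 with 392.7 CPM, testis week 2 replicate 4 with 12686 CPM and uterus week 21 replicate 1 with 691.1 CPM. For miR-542-3p they were brain week 104 female replicate 4 with 134.8 CPM, lung week 2 male replicate 3 with 839.2 CPM and liver week 21 male replicate 2 with 55.28 CPM.

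For miR-450a-5p, whose counts may be shared with miR-450b-5p, they were kidney week 104 male replicate 2 with 377.7 CPM, lung week 21 female replicate 4 with 1756 CPM and muscle week 21 male replicate 4 with 169.9 CPM. To these came muscle week 104 male replicate 3 with 232.5 CPM, spleen week 21 male replicate 1 with 418.8 CPM and thymus week 6 male replicate 4 with 206 CPM. For the sum of the members they were adrenal gland week 104 female replicate 2 with 17608 CPM, liver week 104 female replicate 4 with 3294 CPM and uterus week 21 replicate 1 with 1207 CPM, and on the low side testis week 6 replicate 4 with 6040 CPM and uterus week 6 replicate 3 with 1382 CPM.

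Organs that differed from the others in the change from week 2 to week 21 are listed by the edgeR test of that difference. Skeletal muscle had 7 of 10 members with a larger fall and uterus 6, and testis had 8 with a smaller fall and lung 5. The log2 difference for miR-351-5p was −1.24 in muscle, −1.59 in uterus, 0.81 in lung, 0.59 in testis, 0.53 in liver, 0.49 in brain and 0.42 in kidney. For miR-322-5p it was −0.82 in kidney, −0.94 in uterus, 0.77 in lung and 0.89 in testis. The uterus value includes replicate 4, without which the change within uterus was −0.80 in place of −1.87.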

How the results depend on the processing

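The counts of members called lower at week 6 or 21 than at week 2 stayed within 1.5 times under each alternative run, and none of the 56 single changes reversed. With library size only, 12 pairs in place of 7 were lower at week 104 than at week 21, and 4 to 6 without 1 replicate number. For sex, DESeq2 called 5 pairs higher in males in place of 0, and 0 to 1 were higher in females without 1 replicate number (1 without replicate 1). For sex by age, DESeq2 called 1 negative and 1 positive in place of 0, and 0 to 1 positive without 1 replicate number (1 without replicate 1). Smaller falls in 1 organ numbered 15 to 24 without 1 replicate number, against 24 (15 without replicate 3). With a pseudocount of 5, 13 arm ratios in place of 1 moved toward the 3p arm, and 0 to 1 without 1 replicate number (0 without replicate 1). With lane as a covariate 16 of 77 calls for week 6 against week 2 were lost, 13 of 45 for week 21 against week 6, 3 of 16 for week 104 against week 21 and 4 of 87 for week 21 against week 2.

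With the replicate block 76 of 77, 43 of 45, 13 of 16 and 86 of 87 age calls were kept, in the order of the previous sentence, and 1677 in place of 1686 organ pairs were called. Whether same-numbered samples of 1 organ shared more than a number cannot be read from the correlation check. Organs of the same rat, which are linked by design, also had a mean r of only 0.00834.

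The rarest members limit the rest. miR-503-5p was at 0 counts in all adult livers, and calls of miR-503-5p, miR-351-3p and miR-450a-3p rest on few counts.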
